A study of Mus musculus with 12 samples.

Results

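The CGRP receptor subunits and arrestins are 7 genes, chosen by name as the rows of both deposited count tables called Calcrl, Ramp1, Ramp2, Ramp3, Crcp, Arrb1 and Arrb2, out of 52636 genes listed in each table. The question asked of them was how strongly each is transcribed in neutrophils and macrophages, and whether exposure to calcitonin gene-related peptide (CGRP) alters the transcripts of the receptor that reads it. The cells were bone marrow-derived, from wild-type C57BL/6 J mice aged 8 to 12 weeks. Neutrophils were enriched by a negative-selection kit and used fresh in RPMI with 10% serum, whereas macrophages were grown from kit-isolated monocytes in DMEM/F12 with 10% serum and 10 ng/ml M-CSF for 3 days. Each cell type received 1 nM CGRP or PBS for 4 h, with 3 libraries per group and 12 in all, so that the macrophage groups share the M-CSF culture. Nothing states that the libraries of a group came from separate mice or cultures, so the p-values measure the spread between these libraries, which may be technical.

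CGRP is a neuropeptide released by sensory nerves, and CALCRL is the seven-pass receptor that binds it only in partnership with a receptor activity-modifying protein (RAMP). CALCRL with RAMP1 forms the CGRP receptor, whereas CALCRL with RAMP2 or RAMP3 forms receptors that prefer adrenomedullin. CRCP, the receptor component protein, helps couple the complex to Gs and cyclic AMP and is also a subunit of RNA polymerase III, and the β-arrestins encoded by Arrb1 and Arrb2 bind phosphorylated receptors, end their G protein signal and lead them into endosomes.

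Library totals lay between 2002559 counts in CGRP macrophage replicate 3 and 3631989 counts in PBS neutrophil replicate 2. The counts are of unique molecular identifiers read next to the poly(A) tail. Levels are given as counts and as CPM (counts of a gene per 1000000 counts of its library), scaled by the trimmed mean of M-values (TMM), within each cell type unless stated otherwise. A gene was called when its Benjamini-Hochberg adjusted p in limma-voom, over all genes tested, was below 0.05. Within the groups, libraries correlated with Pearson r between 0.963 and 0.983 on log2 CPM across genes, which are not independent replicates. The lowest values were between CGRP macrophage replicates 1 and 3 (r = 0.963) and between PBS macrophage replicates 2 and 3 (r = 0.966).

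The labelled cell types were checked against lists of defining genes. The sample labels call the cultured cells monocyte/macrophage, which is shortened to macrophage throughout. All 10 neutrophil markers were higher in PBS neutrophils than in PBS macrophages and 9 of 10 macrophage markers were higher in PBS macrophages, Cx3cr1 being the exception. S100a8 averaged 66267 CPM in PBS neutrophils and 145.6 CPM in PBS macrophages, and Apoe averaged 25066 CPM in PBS macrophages and 1227 CPM in PBS neutrophils. The neutrophil preparations also held transcripts of other marker lists. In the PBS group these included erythroid Hbb-bs at 3765 CPM, progenitor Elane at 1559 CPM, eosinophil Prg2 at 555.7 CPM and basophil Mcpt8 at 419.0 CPM. A gene count from these preparations is a sum over all cells present. Of 6 markers of endothelial cells, which are rich in Calcrl and Ramp2, Tek had 0 counts in all 12 libraries, Cdh5 had at most 3 in a library and Emcn at most 1. The other 3 were present at low levels, with at most 28 counts in a library for Pecam1, which leukocytes also express, 15 for Vwf and 6 for Kdr. The summed level of the list averaged 10.8 CPM in PBS neutrophils and 8.56 CPM in CGRP neutrophils, and 5.15 CPM in PBS macrophages and 8.20 CPM in CGRP macrophages. These sums overlapped between PBS and CGRP in both cell types, and their part in the results was not tested.

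The sequence before the transcription start is shown for the 3 receptor genes whose counts changed in at least 1 cell type, with matches to a GC box in capitals. These were the 3 of 7 members matched in the RefSeq promoter table (build GRCm38.p6). Ramp1 lies at chr1:91179822-91225196 on the plus strand, Calcrl at chr2:84330626-84425411 on the minus strand and Ramp3 at chr11:6658521-6677475 on the plus strand. Each line runs 5′ to 3′ and stops just before the first base of the annotated gene, with Ramp3 at chr11:6658283-6658520 (plus strand), Ramp1 at chr1:91179572-91179821 (plus strand) and Calcrl at chr2:84425412-84425516 (minus strand).
Ramp3: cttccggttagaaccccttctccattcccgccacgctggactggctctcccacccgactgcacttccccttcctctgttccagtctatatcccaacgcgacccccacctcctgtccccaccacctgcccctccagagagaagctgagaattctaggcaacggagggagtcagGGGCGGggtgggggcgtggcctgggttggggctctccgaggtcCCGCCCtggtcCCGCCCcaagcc
Ramp1: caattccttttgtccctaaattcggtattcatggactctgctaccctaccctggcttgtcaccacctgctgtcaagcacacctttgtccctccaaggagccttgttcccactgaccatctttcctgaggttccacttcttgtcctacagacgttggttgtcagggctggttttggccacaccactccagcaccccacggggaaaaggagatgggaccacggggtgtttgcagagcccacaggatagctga
Calcrl: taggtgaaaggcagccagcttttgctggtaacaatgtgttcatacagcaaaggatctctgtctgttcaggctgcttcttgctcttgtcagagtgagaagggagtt
Motifs were searched on both strands in the full 250 bases before the RefSeq start. The cyclic AMP response element TGACGTCA was in none of the 3 windows and in 1.55% of 32851 promoters of that length. Its shorter form TGACG, which the full element contains, was also in none of the 3 and in 17.8% of promoters. The GC box GGGCGG was found 3 times before Ramp3, at 78, 35 and 24 bases before the start, once before Calcrl, at 83 bases in a stretch not printed here, and not before Ramp1. These distances are from the RefSeq start, and the last 12 bases before it are left out of the printed Ramp3 line. At least 1 GC box was present in 32.7% of promoters. A match describes these letters only, and the absence of one bears on this window alone.

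Calcrl, which encodes the binding core of the receptor, fell in macrophages. Within each cell type its CPM was lower in every CGRP library than in every PBS library. In neutrophils the PBS libraries held 96, 84 and 96 Calcrl counts (29.9, 25.2 and 34.2 CPM) and the CGRP libraries 72, 63 and 33 (22.9, 18.5 and 14.5 CPM). In macrophages the PBS libraries held 68, 73 and 35 counts (19.8, 22.1 and 12.8 CPM) and the CGRP libraries 17, 16 and 8 (5.46, 5.998 and 4.06 CPM). The groups did not overlap in either cell type, and PBS macrophage replicate 3 was the nearest of its group to the CGRP libraries. The macrophage log2 fold change was −1.75 ± 0.33 (SE, n = 3 per group, limma-voom adjusted p = 0.00335), which is 0.298 of the PBS level (95% confidence interval 0.182 to 0.487). The neutrophil change was −0.64 ± 0.19 (SE, n = 3 per group), 0.640 of the PBS level, with a limma-voom adjusted p of 0.0864 and an unadjusted p of 0.00292, and was not called. In bulk samples, fewer cells of a type and less RNA per cell cannot be told apart.

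Of the 6 members tested, 2 were called in neutrophils, Ramp3 and Ramp1, against 2.53% of all genes tested there. Likewise 2 of 6 were called in macrophages, Ramp3 and Calcrl, against 7.43% of all genes tested. By range alone, 4 members had groups that did not overlap in neutrophils (Calcrl, Ramp1, Ramp3 and Arrb2), where 17.8% of genes tested did the same. In macrophages 3 members did not overlap (Calcrl, Ramp3 and Arrb2), against 24.1% of genes tested. The median log2 fold change of the 6 members was 0.01 in neutrophils and 0.02 in macrophages, beside 0.00080 and 0.0047 over all genes.

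**Figure D1:**
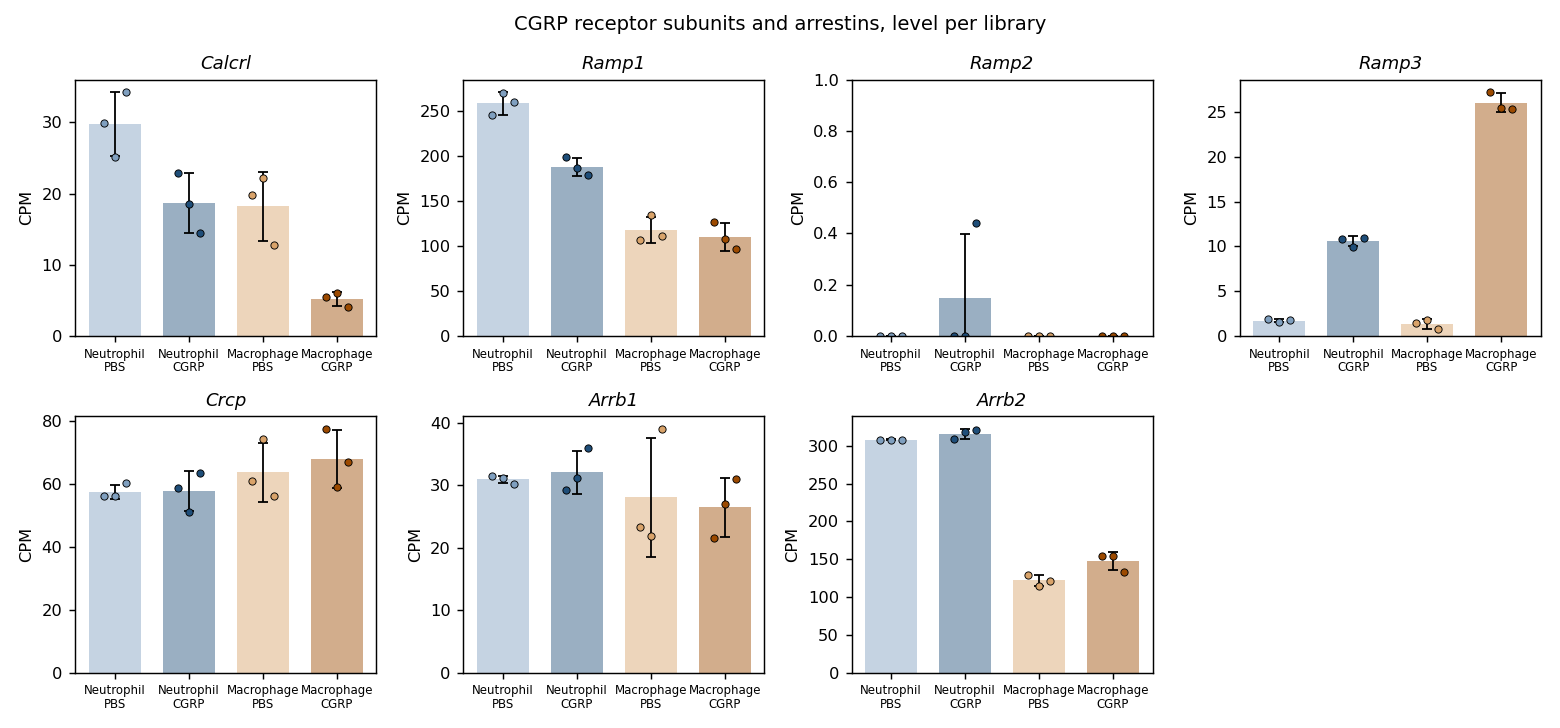
Level of each member in CPM (y axis, linear, TMM-scaled within cell type) in the 4 groups (x axis), with points for single libraries, bars for group means and error bars for 1 SD (n = 3). Ramp3 rises from under 2 CPM to between 25.4 and 27.3 CPM in CGRP macrophages. Calcrl is lower with CGRP in both cell types but was called in macrophages only. The single Ramp2 count gives the only point above 0 in its panel.

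RAMP1 is the partner that makes CALCRL a CGRP receptor, and its gene was the most abundant of the RAMP genes in every library. In neutrophils Ramp1 had 787, 902 and 730 counts with PBS (245, 270 and 260 CPM) and 624, 634 and 408 with CGRP (199, 186 and 179 CPM). All 3 CGRP libraries lay below all 3 PBS libraries, and Ramp1 fell by 0.46 ± 0.09 on the log2 scale (SE, n = 3 per group, limma-voom adjusted p = 0.00336), to 0.728 of the PBS level (95% confidence interval 0.644 to 0.824). The macrophage libraries held 368, 444 and 304 counts with PBS (107, 135 and 111 CPM) and 394, 286 and 190 with CGRP (126, 107 and 96.5 CPM). There the groups overlapped, and the log2 fold change was −0.09 ± 0.15 (SE, n = 3 per group, limma-voom adjusted p = 0.808), with a 95% confidence interval from 0.755 to 1.17 of the PBS level. Without PBS macrophage replicate 2 that value was 0.01.

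RAMP2, the partner that vascular cells use with CALCRL for adrenomedullin, was essentially undetected. It had 0 counts in 11 of 12 libraries and 1 count in CGRP neutrophil replicate 3, and so passed no filter and was not tested. A count of 0 in the PBS macrophages allows a level of up to 0.319 CPM over the group, and in the PBS neutrophils up to 0.311 CPM, for counting error only. The gene lies at chr11:101246028-101259546 on the plus strand and overlaps Vps25 on the same strand. The last 500 bases of 1 of its 8 annotated transcripts are shared with Vps25, while those of the other 7 share no stretch of 31 bases with another gene, so reads from the shared stretch cannot be assigned to Ramp2. Vps25 itself had at most 10 counts in a library.

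RAMP3, the other adrenomedullin partner, which is also known for steering receptors back to the surface after uptake, was the member that rose. PBS neutrophils held 6, 5 and 5 Ramp3 counts (1.87, 1.499 and 1.78 CPM) and CGRP neutrophils 34, 34 and 25 (10.8, 9.98 and 11.0 CPM). PBS macrophages held 5, 6 and 2 counts (1.46, 1.82 and 0.731 CPM) and CGRP macrophages 85, 68 and 50 (27.3, 25.5 and 25.4 CPM). The treated libraries lay far above the controls in both cell types and close to one another. The rise was 2.52 ± 0.38 on the log2 scale in neutrophils (SE, n = 3 per group, limma-voom adjusted p = 3.27e-04), a 5.74-fold increase (95% confidence interval 3.34 to 9.87). In macrophages it was 4.18 ± 0.43 (SE, n = 3 per group, limma-voom adjusted p = 9.19e-06), an 18.1-fold increase (95% confidence interval 9.66 to 34.0). By size of fold change it ranked 4 of 148 genes called higher in neutrophils and 4 of 325 in macrophages.

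Because the PBS counts are few, the pooled counts were also set side by side. They were 16 against 93 in neutrophils, a ratio of pooled CPM of 6.42 (exact binomial 95% interval 3.75 to 11.7), and 13 against 203 in macrophages, a ratio of 18.4 (10.5 to 35.2). These intervals cover counting error only. At its 3′ ends Ramp3 shared no 31-base stretch with another annotated gene. It overlaps the pseudogene Gm11978 on the opposite strand, which had 1 count over all 12 libraries.

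**Figure D2:**
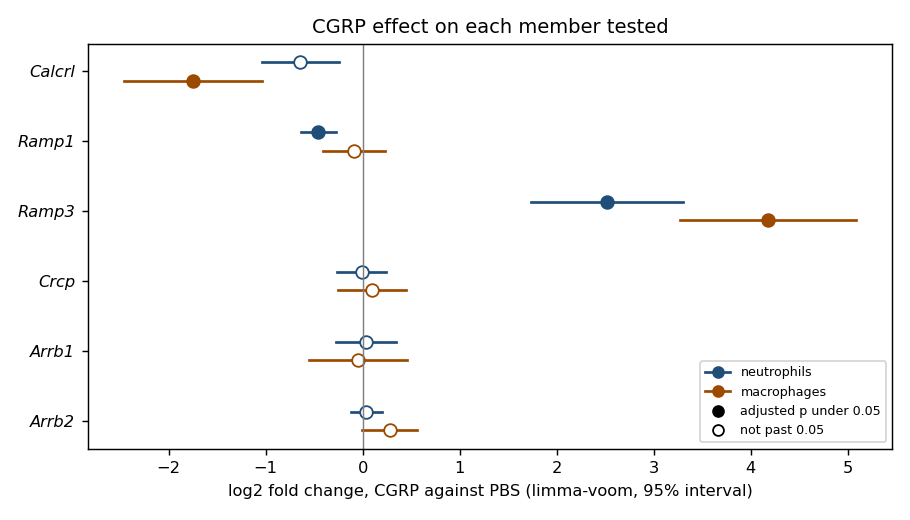
Log2 fold change of CGRP against PBS (x axis) for each member tested (y axis), with limma-voom 95% confidence intervals as lines, neutrophils in blue and macrophages in brown. Filled points have adjusted p under 0.05: Ramp3 in both cell types, Ramp1 in neutrophils and Calcrl in macrophages; the intervals of Crcp and Arrb1 span 0 in both.

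The make-up of the RAMP pool was described as the share of Ramp3 among all RAMP counts. Ramp3 made up 0.757%, 0.551% and 0.680% of all RAMP counts in the PBS neutrophils and 5.17%, 5.09% and 5.76% in the CGRP neutrophils. In macrophages its share was 1.34%, 1.33% and 0.654% with PBS and 17.7%, 19.2% and 20.8% with CGRP. Every CGRP library exceeded every PBS library, and every CGRP macrophage library exceeded every CGRP neutrophil library. The exact binomial 95% intervals were 14.4 to 21.5% for the lowest CGRP macrophage library and 0.437 to 3.10% for the highest PBS macrophage library. Ramp1 remained the majority RAMP transcript in all 12 libraries. Division by the exonic length of each gene kept that order and put the mean Ramp3 share at 34.3% ± 2.24 (SD, n = 3) in CGRP macrophages. As only 3′ ends were counted, that division can overstate the shorter Ramp3, with 1380 exonic bases against 3022 for Ramp1. By counts alone the mean share there was 19.3% ± 1.54 (SD, n = 3).

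The number of RAMP counts for each Calcrl count describes how the partner and the receptor core compare within a library. It was 8.26, 10.8 and 7.66 in PBS neutrophils and 9.14, 10.6 and 13.2 in CGRP neutrophils, and these groups overlapped. In macrophages it was 5.49, 6.16 and 8.74 with PBS and 28.2, 22.1 and 30.0 with CGRP, without overlap. Ramp3 alone went from 0.0735, 0.0822 and 0.0571 counts per Calcrl count in PBS macrophages to 5.00, 4.25 and 6.25 in CGRP macrophages, so that Ramp3 counts outnumbered Calcrl counts in the treated macrophages. In CGRP neutrophils the same ratio was 0.472, 0.540 and 0.758, below 1 in each library. These ratios are of counts and are not corrected for length.

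**Figure D3:**
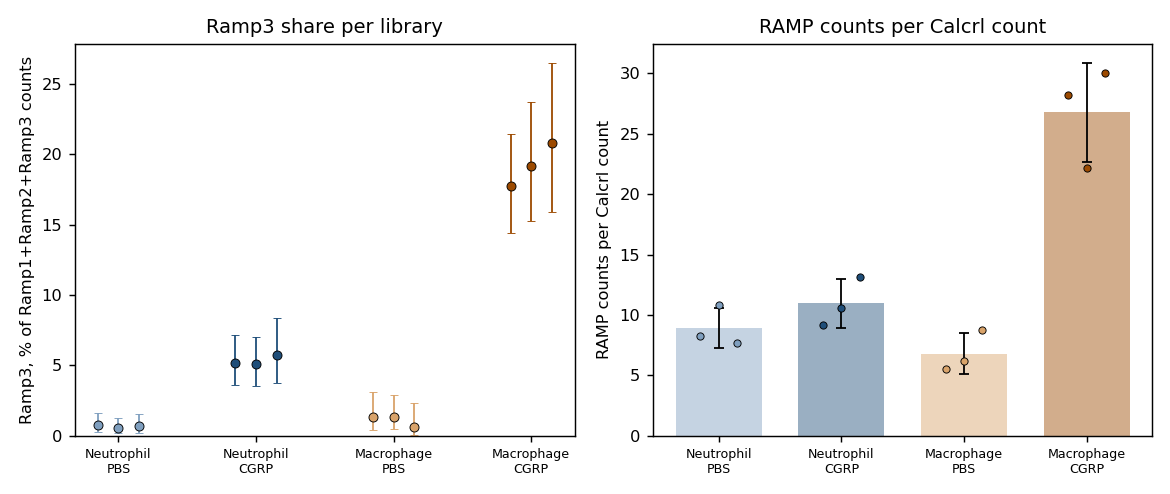
Left, Ramp3 as a percentage of Ramp1, Ramp2 and Ramp3 counts (y axis) in each library (points) with exact binomial 95% intervals. Right, RAMP counts per Calcrl count (y axis) with points for libraries, bars for means and error bars for 1 SD (n = 3); CGRP macrophages stand highest in both panels, at 17.7 to 20.8% and 22.1 to 30.0.

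Crcp, at chr5:130029290-130060789 on the plus strand, encodes the coupling component. Its neutrophil libraries held 180, 188 and 169 counts with PBS (56.1, 56.4 and 60.2 CPM) and 184, 174 and 145 with CGRP (58.6, 51.1 and 63.6 CPM). The macrophage libraries held 209, 245 and 154 counts with PBS (60.8, 74.2 and 56.3 CPM) and 242, 158 and 132 with CGRP (77.7, 59.2 and 67.1 CPM). The groups overlapped in both cell types. The log2 fold changes were −0.01 (95% confidence interval −0.26 to 0.24) and 0.09 (−0.25 to 0.44), so changes of the size seen for Ramp3 or for Calcrl in macrophages lie outside both intervals. Of 10 other RNA polymerase III subunit genes, 9 were tested in neutrophils and 10 in macrophages, and limma-voom called none in either cell type, with 0 and 1 at an unadjusted p under 0.05 and 0 by edgeR or DESeq2, beside 2.53% and 7.43% of all genes called by limma-voom. Among these Polr3k was the most abundant, at 59.6 CPM in PBS neutrophils and 116 CPM in PBS macrophages. Polr3d had the lowest macrophage fold change at −1.17 ± 0.35 on the log2 scale (SE, n = 3 per group, limma-voom adjusted p = 0.0515, with 0.0139 to 0.0594 over the alternatives other than leaving out a library). Polr3d was called in 6 of those 10 alternatives and in 1 of 6 fits that left out a library.

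Neither β-arrestin gene was called in either cell type. Arrb1, at chr7:99535466-99606771 on the plus strand, had 101, 104 and 85 counts in PBS neutrophils (31.5, 31.2 and 30.3 CPM) and 92, 106 and 82 in CGRP neutrophils (29.3, 31.1 and 35.98 CPM). In macrophages it had 80, 72 and 107 counts with PBS (23.3, 21.8 and 39.1 CPM) and 67, 72 and 61 with CGRP (21.5, 26.99 and 30.99 CPM). The groups overlapped in both, with PBS macrophage replicate 3 standing above the other 5 macrophage libraries, and the log2 fold changes were 0.03 (95% confidence interval −0.27 to 0.34) and −0.05 (−0.55 to 0.46). Without that library the macrophage value was 0.19.

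Arrb2, at chr11:70432635-70440828 on the plus strand, was by far the more abundant β-arrestin gene. It had 986, 1028 and 865 counts in PBS neutrophils (307, 308 and 308 CPM) and 969, 1084 and 732 in CGRP neutrophils (309, 318 and 321 CPM). It had 443, 379 and 333 counts in PBS macrophages (129, 115 and 122 CPM) and 481, 413 and 263 in CGRP macrophages (154, 155 and 134 CPM). All CGRP libraries lay above all PBS libraries in each cell type, though by little. The log2 fold change was 0.04 ± 0.08 in neutrophils (SE, n = 3 per group, limma-voom adjusted p = 0.901) and 0.28 ± 0.13 in macrophages (SE, n = 3 per group, limma-voom adjusted p = 0.259). In counts, Arrb2 exceeded Arrb1 by 9.94-fold ± 0.213 (SD, n = 3) in PBS neutrophils and 4.64-fold ± 1.33 (SD, n = 3) in PBS macrophages. Per kilobase of exons the ratios were 39.0 ± 0.836 and 18.2 ± 5.22, which rest on the division of 3′-end counts by the longer Arrb1 exons.

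An interaction term over all 12 libraries compared the CGRP effect in macrophages with that in neutrophils. None of the 6 members tested was called by limma-voom, where 2.36% of all genes were, nor by edgeR or DESeq2, and 3 had an unadjusted p under 0.05 in limma-voom. For Ramp3 the macrophage effect exceeded the neutrophil effect by 1.67 ± 0.53 on the log2 scale (SE, n = 3 per group, limma-voom adjusted p = 0.113, 95% confidence interval 0.57 to 2.78). For Calcrl the difference was −1.09 ± 0.39 (SE, n = 3 per group, limma-voom adjusted p = 0.188) and for Ramp1 0.38 ± 0.17 (SE, n = 3 per group, limma-voom adjusted p = 0.319). The larger effects on Ramp3 and Calcrl in macrophages, and the fall of Ramp1 in neutrophils, were therefore not shown to differ between the cell types.

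The resting levels were compared between the PBS groups in the same fit, in which 67.9% of all genes tested were called. Cell type, isolation kit, medium and culture time cannot be told apart in this contrast. Of the 6 members, 3 were called, each higher in neutrophils. Ramp1 was 2.27-fold higher (95% confidence interval 1.92 to 2.69, limma-voom adjusted p = 7.00e-09), Arrb2 2.61-fold higher (2.25 to 3.02, adjusted p = 4.18e-11) and Calcrl 1.67-fold higher (1.24 to 2.25, adjusted p = 0.00313). Ramp3 (log2 difference 0.41, 95% confidence interval −0.61 to 1.43), Arrb1 (0.26, −0.14 to 0.66) and Crcp (−0.10, −0.39 to 0.19) were not called. Without PBS macrophage replicate 3, which had the highest Arrb1 level of its group, the Arrb1 difference was 0.49 and was called (limma-voom adjusted p = 0.0237).

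The order of the members was set by level per kilobase of exons, scaled over all 12 libraries. Since only the 3′ end of each molecule was read, division by length can understate long genes such as Arrb1, with 11175 exonic bases against 1380 for Ramp3. The order by CPM, without that division, is therefore given beside it. In PBS neutrophils the order was Arrb2 (110 ± 0.779 CPM per kb, SD, n = 3), Ramp1 (87.0 ± 4.64), Crcp (36.9 ± 1.33), Calcrl (6.19 ± 0.902), Arrb1 (2.82 ± 0.0674), Ramp3 (1.26 ± 0.136) and Ramp2 (0), and the ranges of neighbours did not overlap. By CPM, Arrb1 (31.5 ± 0.753 CPM) and Calcrl (30.2 ± 4.40 CPM) were in the reverse order there, with overlapping ranges. In PBS macrophages Arrb2 (42.2 ± 2.38), Crcp (39.7 ± 5.92) and Ramp1 (38.4 ± 4.93) were not separated beyond their ranges. Below them came Calcrl (3.69 ± 0.989) and Arrb1 (2.48 ± 0.840), which overlapped, and then Ramp3 (0.955 ± 0.398) and Ramp2 (0). By CPM, the macrophage order was Arrb2, Ramp1, Crcp, Arrb1 (27.7 ± 9.38 CPM), Calcrl (17.99 ± 4.83 CPM), Ramp3 and Ramp2. With CGRP, the place of Ramp3 depended on the scale. Per kilobase it was 4 in both cell types, at 7.73 ± 0.434 CPM per kb in neutrophils and 18.6 ± 0.628 in macrophages, above Calcrl at 3.85 ± 0.917 and 1.04 ± 0.198. By CPM it stayed at 6 in neutrophils (10.7 ± 0.599 CPM), below Calcrl (18.8 ± 4.48 CPM), and went from 6 to 5 in macrophages (25.6 ± 0.867 CPM), above Calcrl (5.09 ± 0.966 CPM).

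Ligand genes of this receptor family were scarce. Only Calca, which encodes both calcitonin and CGRP in counts that do not separate them, was abundant enough to be tested, and only in neutrophils and in the 12-library fit. It had 26, 33 and 24 counts in PBS neutrophils and 46, 33 and 25 in CGRP neutrophils, which overlapped (log2 fold change 0.39, limma-voom adjusted p = 0.578). In macrophages it had 0 counts in each PBS library and 7, 3 and 5 in the CGRP libraries. With the PBS group set at 3 counts, the pooled CGRP level was 5.90-fold higher, without allowance for counting error. None of the 12 related peptide receptor genes reached the level for testing in either cell type, and Calcr, the calcitonin receptor that also pairs with RAMPs, had 0 counts throughout.

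Other Gs-coupled receptors signal through the same G protein as CALCRL. Of 9 listed, 5 were tested in neutrophils, with 1 lower and none higher, and 4 in macrophages, with 1 lower and 1 higher, where 2.53% and 7.43% of all genes were called. At an unadjusted p under 0.05 in limma-voom there were 2 in neutrophils and 4 in macrophages, in both directions. The median log2 fold change was 0.066 in neutrophils and −0.049 in macrophages, beside 0.00080 and 0.0047 over all genes. Ptgir, the prostacyclin receptor gene, was the most abundant of the list in PBS neutrophils at 39.8 CPM and was not called in either cell type (limma-voom adjusted p = 0.772 and 0.183). In PBS macrophages the most abundant was Ptger2, a prostaglandin E2 receptor gene, at 19.2 CPM. Its log2 fold change was 0.70 in neutrophils (limma-voom adjusted p = 0.0572) and 0.55 in macrophages (0.169), and it was called in neither. The histamine receptor gene Hrh2 was lower in neutrophils, with 79, 81 and 57 counts against 30, 44 and 26 (log2 fold change −1.03 ± 0.21, SE, n = 3 per group, limma-voom adjusted p = 0.00607). In macrophages the prostaglandin E2 receptor gene Ptger4 had 25, 19 and 20 counts with PBS and 3 in each CGRP library (−2.33 ± 0.47, SE, n = 3 per group, limma-voom adjusted p = 0.00492). The adenosine receptor gene Adora2b went the other way there, from 47, 46 and 32 counts to 63, 60 and 53 (0.78 ± 0.22, SE, n = 3 per group, limma-voom adjusted p = 0.0419). Without CGRP macrophage replicate 2 the limma-voom adjusted p was 0.0573 for Ptger4. Adora2b stayed called only without CGRP macrophage replicate 1 among the libraries left out, with limma-voom adjusted p up to 0.151 in the other 5 fits, and its call was also lost by DESeq2 (adjusted p = 0.0611), without TMM (0.0721) and without the filter on low counts (0.0811).

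Downstream of the receptor, none of the 10 G protein subunit genes tested in neutrophils and none of the 11 tested in macrophages was called by limma-voom, Gnai2 being the most abundant at 748 CPM in PBS neutrophils and 371 CPM in PBS macrophages. The same held for the 4 receptor kinase genes tested, which phosphorylate active receptors, with Grk2 the most abundant at 189 and 56.9 CPM. It held too for the genes of receptor endocytosis and recycling, 18 tested in neutrophils and 19 in macrophages, led by the clathrin light chain gene Clta at 396 and 792 CPM. Over these 3 lists, 6 genes in neutrophils and 4 in macrophages had an unadjusted p under 0.05, and edgeR and DESeq2 called none, beside 2.53% and 7.43% of all genes called by limma-voom. Whether a count of 0 differs from that background was not tested. Among 3 peptidase genes tested, only Ece2, which belongs to the endothelin-converting enzyme family, was called, with 112, 117 and 105 counts in PBS macrophages and 62, 50 and 44 in CGRP macrophages (log2 fold change −0.80 ± 0.19, SE, n = 3 per group, limma-voom adjusted p = 0.0160), beside 7.43% of all genes. The call was lost without CGRP macrophage replicate 2 (limma-voom adjusted p = 0.104) and after thinning (limma-voom adjusted p = 0.0974). In neutrophils Ide, the insulin-degrading enzyme gene, was the most abundant of them at 15.5 CPM with PBS.

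The arrestin relatives that were abundant enough to be tested were α-arrestins. These proteins bring ubiquitin ligases to membrane proteins, and Txnip among them is known for its role in glucose uptake and redox control. Of 5 tested, 1 was called higher in neutrophils and 3 in macrophages, with none lower, beside 2.53% and 7.43% of all genes called in either direction. Arrdc3, the α-arrestin gene with the largest change of the list in macrophages, had 332, 339 and 269 counts in PBS neutrophils and 411, 505 and 289 in CGRP neutrophils (log2 fold change 0.43 ± 0.10, SE, n = 3 per group, limma-voom adjusted p = 0.0166). Its macrophage counts went from 90, 68 and 84 to 286, 277 and 199 (1.96 ± 0.18, SE, n = 3 per group, limma-voom adjusted p = 2.57e-06), a 3.88-fold rise. Arrdc4 rose 1.74-fold (limma-voom adjusted p = 0.0138) and Txnip 1.44-fold (limma-voom adjusted p = 0.0376) in macrophages, where the 3 CGRP libraries lay above the 3 PBS libraries for both. In neutrophils the Arrdc3 call was lost without any 1 of the PBS libraries or CGRP replicate 2 (limma-voom adjusted p up to 0.119). In macrophages the Arrdc4 call was lost without CGRP replicate 2 (limma-voom adjusted p = 0.0769), and the Txnip call without PBS replicate 1 or any 1 CGRP library (up to 0.242). Among the other alternatives, the neutrophil Arrdc3 call was lost in the single 12-library fit (adjusted p = 0.106), the Arrdc4 call after thinning (0.0520) and the Txnip call without TMM (0.0819) and without the filter on low counts (0.0780).

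**Figure D4:**
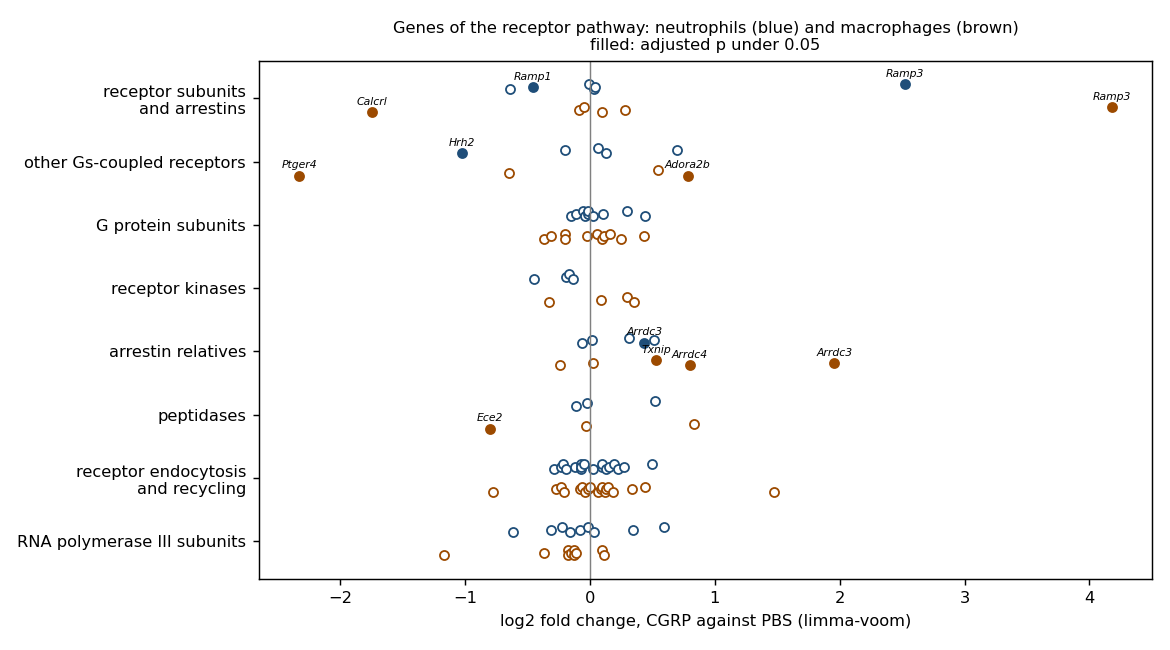
Log2 fold change of CGRP against PBS (x axis) for every tested gene of 8 lists (y axis), neutrophils in blue and macrophages in brown, with filled and named points at adjusted p under 0.05. Called genes lie among the receptor subunits, other Gs-coupled receptors, arrestin relatives and peptidases, and the G protein, receptor kinase, endocytosis and RNA polymerase III lists hold none.

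**Figure D5:**
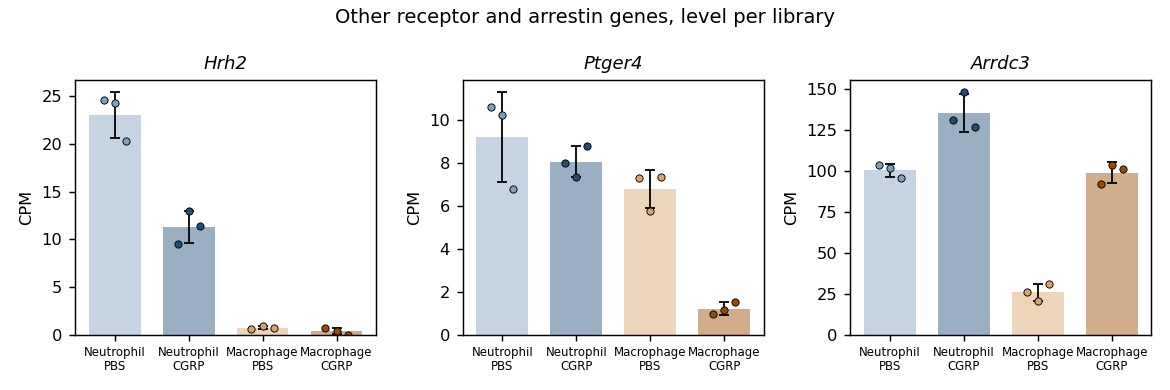
Level in CPM (y axis, linear) of Hrh2, Ptger4 and Arrdc3 in the 4 groups (x axis), with points for libraries, bars for means and error bars for 1 SD (n = 3). Hrh2 is lower with CGRP in neutrophils and under 1 CPM in each macrophage library, the Ptger4 groups are apart in macrophages and overlap in neutrophils, and Arrdc3 reaches 98.9 CPM in CGRP macrophages, near the 100.3 CPM of PBS neutrophils.

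The genes with the pattern most like each receptor gene were found as those with the smallest root mean square difference from it, over the 12 libraries, in log2 CPM centred on each gene's own mean, among 10694 genes. For Ramp3 they were B3gnt5 (0.509), Cnnm2 (0.542) and Thbs1 (0.615), against 1.57 for the spread of Ramp3 about its own mean. Each was called higher with CGRP in both cell types, Thbs1 by 2.39 and 5.02 on the log2 scale in neutrophils and macrophages, B3gnt5 by 1.60 and 3.68 and Cnnm2 by 2.03 and 2.88. For Calcrl they were Mocos (0.322), Aim2 (0.356) and Ptpn6 (0.357), against a spread of 0.928. Mocos and Aim2 were called lower in macrophages and not in neutrophils, and Ptpn6 in both. The Aim2 call was lost without PBS macrophage replicate 1 or 2 or CGRP macrophage replicate 2 or 3 (limma-voom adjusted p up to 0.0902), and the neutrophil Ptpn6 call without PBS replicate 1 (0.0825). For Ramp1 they included Top3b (0.115) and Bcdin3d (0.141), against a spread of 0.539, with limma-voom adjusted p from 0.270 to 0.967 in the CGRP comparisons of both cell types. The points share their libraries, and the likeness is a description. These genes were picked by their pattern in the same libraries, so their calls follow in part from that choice and are not a separate result.

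Some marker levels moved with the treatment. In macrophages the summed level of 10 macrophage markers was 33063, 37005 and 33189 CPM with PBS and 41859, 45045 and 47734 CPM with CGRP, most of it Apoe. Apoe was called higher (log2 fold change 0.46, limma-voom adjusted p = 0.0263) and Cx3cr1 lower (−1.36, limma-voom adjusted p = 1.43e-04), and no other gene of the list was called, beside 7.43% of all genes called in macrophages. The Apoe call was lost without PBS macrophage replicate 1 or CGRP macrophage replicate 2 or 3 (limma-voom adjusted p up to 0.212) and by edgeR (0.0732). The summed level of 10 neutrophil markers in the macrophage libraries was 338, 398 and 306 CPM with PBS and 453, 425 and 419 CPM with CGRP, led by S100a8, with none of the list called by limma-voom, edgeR or DESeq2 and 2 at an unadjusted p under 0.05. The B cell list was higher in sum in macrophages, from a mean of 32.4 to 38.8 CPM, where it was Cd79b alone, as Cd79a and Ms4a1 were at 0. No gene of that list was called in either cell type by limma-voom, edgeR or DESeq2, with 0 at an unadjusted p under 0.05, but only 3 were tested in neutrophils and 1 in macrophages. The eosinophil list in macrophages, led by Ccr3 and with Epx at 0, went from a mean of 11.2 to 8.18 CPM. Its members went both ways, with pooled counts from 65 to 21 for Ccr3, 14 to 1 for Siglecf and 28 to 43 for Prg2. Of 2 eosinophil genes tested there, limma-voom, edgeR and DESeq2 called 0, with 1 at an unadjusted p under 0.05. The groups did not overlap in these 4 macrophage sums.

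In neutrophils the summed levels of the macrophage markers (means of 1955 CPM with PBS and 1967 CPM with CGRP), the neutrophil markers (190470 and 170770 CPM), the B cell markers (75.7 and 84.2 CPM) and the progenitor markers (2871 and 2644 CPM) overlapped between the groups. The T and NK cell list, led by Nkg7, went from a mean of 103 to 84.0 CPM without overlap. No gene of these lists was called in neutrophils by limma-voom, edgeR or DESeq2, where 2.53% of all genes were called by limma-voom, and single markers lay on both sides of the PBS level. The 9 macrophage markers tested there ranged from 0.705 of the PBS level for Adgre1 (limma-voom adjusted p = 0.0934) and 0.764 for Cx3cr1 (0.0843) to 1.34 for Mrc1 (0.563), with 2 lower and 1 higher without overlap, beside 17.8% of all genes without overlap. The 10 neutrophil markers ranged from 0.745 for Ly6g (limma-voom adjusted p = 0.0663) to 1.13 for Cxcr2 (0.488), and the 4 progenitor markers from 0.562 for Kit (0.169) to 1.26 for Cd34 (0.595). At an unadjusted p under 0.05 there were 2 macrophage, 2 neutrophil, 2 progenitor and 1 T and NK cell markers and 0 B cell markers. Without PBS neutrophil replicate 3, Adgre1 (limma-voom adjusted p = 0.0418) and Ly6g (0.0101) were called lower. Ly6g was also called without CGRP neutrophil replicate 1 (0.00377), without TMM (0.0407), without the filter on low counts (4.27e-04), with quality weights (0.0315) and with the replicate block (0.0255). The part of these sums and genes in the changes of Ramp3, Calcrl and Ramp1 was not tested. The summed levels of the basophil and mast cell, platelet, erythroid, dendritic cell and stromal lists overlapped between PBS and CGRP in both cell types.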

How the data were processed

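The deposited data were 2 tables of gene counts, 1 per cell type, which the authors made from 3′-primed libraries with nfCore/RNAseq (v3.2, UMI mode), STAR on GRCm38 and featureCounts. The counts carry no normalization. The annotation release and the strand setting are not given in the sources used here. Genes were filtered (filterByExpr), TMM-scaled and tested with limma-voom (limma 3.58.1, edgeR 4.0.16, R 4.3.3), two-sided, with Benjamini-Hochberg adjustment over all genes tested, in 6 libraries per cell type for CGRP against PBS and in all 12 for the interaction and the resting contrast. The code was tested on simulated data. Alternatives were edgeR quasi-likelihood, DESeq2 1.42.0, other scalings, filters, weights and fits, thinning to 2002559 counts, the replicate block and leaving out each library. Gene positions and exonic lengths are from GENCODE M21 (GRCm38), which holds 52489 of the 52636 identifiers.

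The members and all gene lists were chosen with earlier results of these data known. Named genes were the 7 members, every gene of the other lists with adjusted p below 0.05 for CGRP against PBS, the most abundant gene of each list, marker genes at 0, the 3 genes nearest in pattern to each receptor gene, and genes overlapping a member. Polr3d, the single markers given in neutrophils and the marrow and endothelial genes given with the cell type check were named after their values were seen. A few genes of these sets are not reported here and are left out of the lists' counts and sums.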

Additional observations from a re-analysis of the deposited data

Results flagged for a closer look

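None of the 6 receptor and arrestin genes tested passed the interaction test. In the gene lists around them 5 of 107 genes tested did, where 2.36% of all genes tested passed, by limma-voom over 12 libraries with Benjamini-Hochberg adjustment, each value being the macrophage effect minus the neutrophil effect on the log2 scale. Arrdc3 differed by 1.53 ± 0.20 (SE, adjusted p = 3.24e-05), rising in both cell types. Ptger4 differed by −2.14 ± 0.53 (SE, adjusted p = 0.0269), with 34, 34 and 19 counts in PBS neutrophils against 25, 25 and 20 in CGRP neutrophils. Cx3cr1 differed by −0.96 ± 0.21 (SE, adjusted p = 0.0114). Calca differed by 3.31 ± 0.68 (SE, adjusted p = 0.00650), a fitted value that depends on the prior weight given to the 0 counts of the PBS macrophages and spanned 2.67 to 5.13 over the alternatives other than leaving out a library. Calca was too low for testing in the macrophages alone, with 0 against 15 pooled counts, and passed the filter through the neutrophils. No conclusion is drawn from its difference. Pecam1, an endothelial marker that leukocytes also carry, differed by 3.06 ± 0.79 (SE, adjusted p = 0.0394), with 0, 2 and 6 counts in PBS macrophages, 12, 6 and 13 in CGRP macrophages, 28, 25 and 27 in PBS neutrophils and 18, 28 and 13 in CGRP neutrophils. Like Calca, Pecam1 was too low for testing in the macrophages alone and passed the filter through the neutrophils, so no conclusion is drawn from it. Both genes are among the 5 of 107 counted above. Leaving out 1 library ended the difference for Ptger4 in 7 of 12 cases (PBS neutrophil replicate 3, CGRP neutrophil replicates 1 and 3, PBS macrophage replicate 1 and each CGRP macrophage library, adjusted p up to 0.0943). For Pecam1 it did so in 9 of 12 cases, all but PBS macrophage replicate 3 and CGRP macrophage replicates 1 and 2 (adjusted p up to 0.244), with values from 1.93 to 3.94 over the libraries left out. Pecam1 also missed the threshold by edgeR (adjusted p = 0.0640), without TMM (0.0698), without the filter on low counts (0.0789) and after thinning (0.120), and Ptger4 after thinning (0.221). Without PBS macrophage replicate 1 the adjusted p was 0.0573 for Calca, and without CGRP macrophage replicate 2 it was 0.0599 for Cx3cr1. Arrdc3 passed in all 12.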

How the results depend on the processing

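Ramp3 in both cell types, Ramp1 in neutrophils and Calcrl in macrophages stayed called under each of the 10 alternatives that gave an adjusted p and without each library in turn. DESeq2 gave no adjusted p for Ramp3 in neutrophils (log2 fold change 2.63, unadjusted p = 1.71e-07). Calcrl in neutrophils was called under none (adjusted p 0.0538 to 0.303). Directions turned for Crcp, for Arrb1 and for Ramp1 in macrophages, in comparisons that called none of them. Crcp in neutrophils was 0.048 without TMM and 0.091 after thinning, and −0.074 to 0.082 over libraries left out. Its difference between cell types was −0.0066 and −0.033 under the same settings (−0.00021 to 0.23 over libraries left out). Arrb1 in macrophages was 0.10 with quality weights and 0.0028 after thinning (−0.20 to 0.19 over libraries left out), and its difference between cell types 0.085 with quality weights (−0.22 to 0.16). Over libraries left out, Arrb1 in neutrophils spanned −0.037 to 0.091, Ramp1 in macrophages −0.20 to 0.015, Crcp in macrophages −0.016 to 0.21 and the resting difference of Crcp −0.19 to 0.013. The resting difference of Arrb1 was called without PBS macrophage replicate 3 (0.49, adjusted p = 0.0237). The cause was not tested.

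The number of genes called was 248 in neutrophils (137 in the single 12-library fit, 138 to 234 over libraries left out), 698 in macrophages (1406 with quality weights, 1050 in the single fit, 347 to 765) and 252 for the interaction (520 with quality weights, 149 to 328). Without TMM the median of all genes moved from 0.02 to −0.10 in the interaction, so differences there are relative to that shift. With the replicate number as a replicate block the counts were 254, 905 and 288 and no call of a member changed. Same-numbered libraries deviated together with r from −0.18 to 0.27, and not every library matched its own number best. Per kilobase of exons, the Ramp3 share of RAMP counts averaged 1.44% and 11.0% in PBS and CGRP neutrophils and 2.39% and 34.3% in macrophages. These values divide 3′-end counts by length, which can overstate the short Ramp3. Without that division the means were 0.663% and 5.34% in neutrophils and 1.11% and 19.3% in macrophages. Ramp3 in PBS libraries rests on 2 to 6 counts, which limits the precision of its fold change.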
